A study of Mus musculus with 19 samples.

Results

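Mitochondrial biogenesis in muscle is steered by a small set of transcriptional regulators, and 9 of their genes are described here in mouse hind-limb muscle. They are the coactivators Ppargc1a and Ppargc1b, the nuclear receptors Esrra, Esrrg, Ppara and Ppard, the factors Nrf1 and Tfam, and the corepressor Nrip1. The genes were taken by name, and all 9 were found among the 14707 rows of the deposited table and passed the filter on low values (a mean of at least 10). RNA was sequenced from 19 libraries of male C657Bl/6J mice (as the labels spell it), with no other allele named. The groups were young lean (6 months old, fat giving 12% of dietary energy, n = 4), young obese (6 months, fat giving 60%, n = 5), aged lean (20 to 21 months, 12%, n = 5) and aged obese (20 to 21 months, 60%, n = 5). The sample labels name gastrocnemius, while the series' design text names tibialis anterior and an age of 21 to 24 months. Neither the duration of feeding nor the hour of tissue collection is given in the labels. Libraries are numbered within a group in accession order, which pairs nothing across groups. Whether a library stands for a separate animal is not stated, and p-values therefore reflect only the spread among these libraries, which may be technical.

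PGC-1 coactivators, the products of Ppargc1a and Ppargc1b, carry no DNA-binding domain and are recruited by nuclear receptors and other factors. With the oestrogen-related receptors (Esrra, Esrrg) and nuclear respiratory factor 1 (Nrf1) they raise nuclear genes of the respiratory chain. With the peroxisome proliferator-activated receptors (Ppara, Ppard) they raise genes of fatty acid use. Tfam is carried into mitochondria, where it packages mitochondrial DNA and starts its transcription, and Nrip1, also called RIP140, recruits corepressors to the same receptors. In muscle these genes are known for setting oxidative capacity and for the response to exercise and fasting.

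Estimated depth was 15.1 to 17.9 M reads per library (M, mega). All 10 muscle fibre markers were present in every group, with summed normalized values of 2.81 to 3.82 M. They mark skeletal muscle and do not tell gastrocnemius from tibialis anterior. Values below are the authors' normalized values, in which 1 unit is close to 1 read. Differences are log2(value + 1) changes from limma fitted over 13367 genes and all 4 groups, called at a Benjamini-Hochberg adjusted p under 0.05. Across 8 comparisons of the 9 genes, 7 of 72 differences were called. They fell on 3 genes, Ppard, Esrra and Nrip1, and 6 genes were called in none. Of all genes tested, 0.292% (diet in aged mice) to 11% (diet in young mice) were called in a comparison. All 7 called differences came from comparisons that include the young lean libraries, so they are not separate results.

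Both young groups held libraries at the edge of the range for a pair of receptors. In young lean libraries 2 to 4, Ppard was above and Esrra below all 15 libraries of the other groups. In 4 of 5 young obese libraries Esrra was above all 14 libraries of the other groups. Of all genes tested, 4.53% had at least 3 of 4 young lean libraries above all others, 2.89% had as many below, and 2.92% had at least 4 of 5 young obese libraries above all others. Young lean 1 lay within the range of those 15 libraries for both genes. Its clock score, the difference in mean log2 value between 3 genes (Clock, Arntl, Npas2) and 6 others (Ciart, Nr1d2, Hlf, Tef, Per3, Dbp), was -1.32, against -2.88 to -3.20 in young lean 2 to 4. In bulk RNA, fewer cells of a type and less RNA per cell cannot be told apart.

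**Figure D1:**
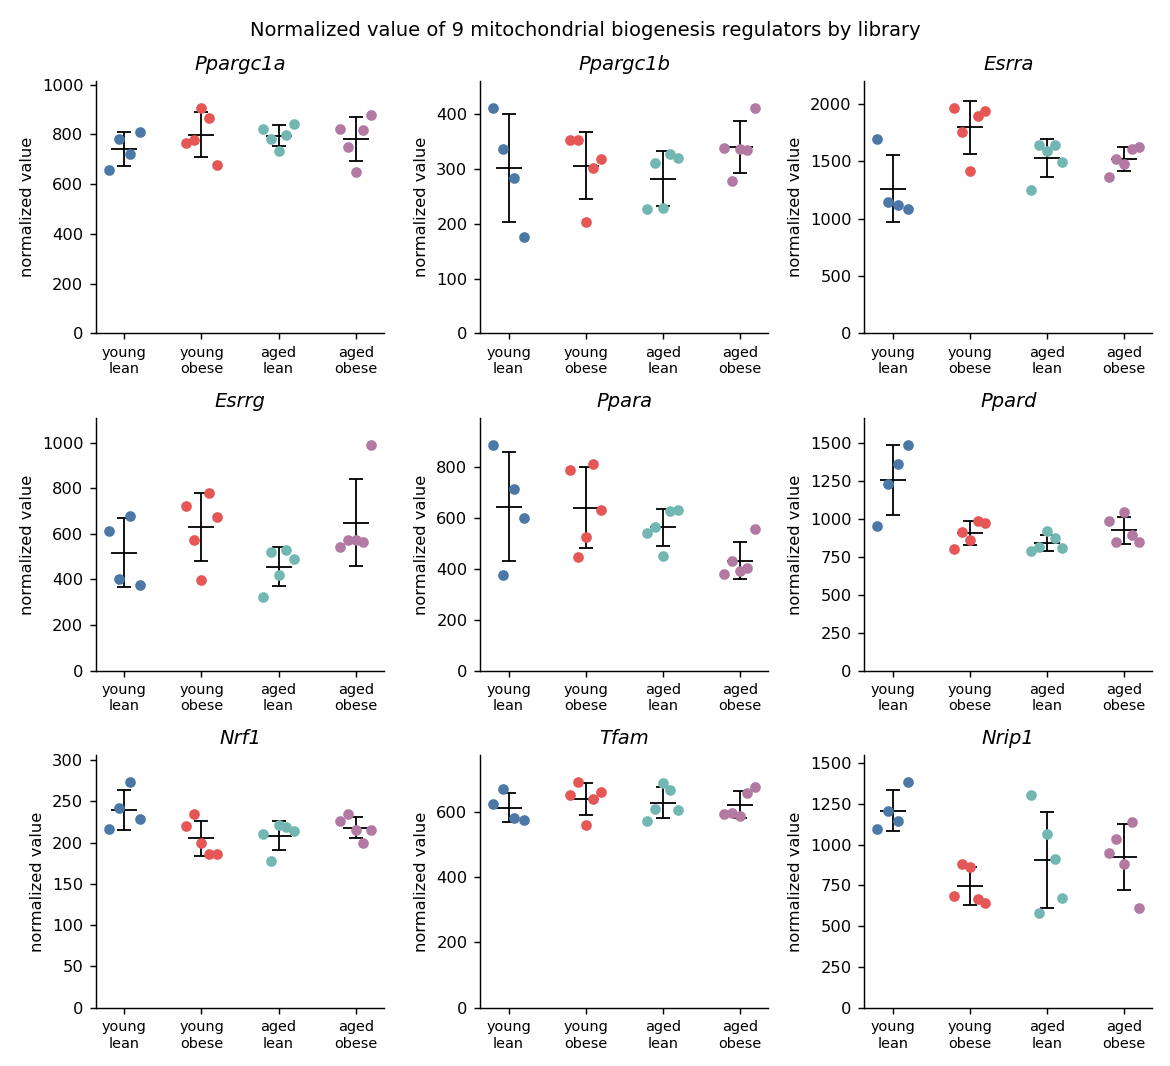
Normalized value (vertical axis, from 0) of each of the 9 genes in every library, by group (horizontal axis). Points are libraries, bars are the mean and SD. Ppard is highest and Esrra lowest in 3 of 4 young lean libraries, while Ppargc1a and Tfam lie at similar levels in all groups.

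RefSeq promoter windows (build GRCm38.p6) were matched by symbol for 8 of the 9 genes, and Ppargc1b had no entry. The 250 bases before the gene start were searched on both strands for 5 motifs. These were the ERR site TCAAGGTCA, the PPAR direct repeat (AGGTCA, any 1 base, AGGTCA), the NRF-1 site (GCGCA followed by TGCGC), the GABP site CCGGAAG and the E-box CACGTG. The ERR site was in 0.387% of all 32851 windows of this length, the PPAR repeat in 0.0335%, the NRF-1 site in 0.782%, the GABP site in 6.91% and the E-box in 6.02%. No window of the 8 genes held the ERR site, the PPAR repeat or the E-box. Only Ppara held the whole NRF-1 site, 31 bases before its start, and only Tfam held the GABP site, 47 bases before its start. Esrra held the last 8 letters of the NRF-1 site, GCATGCGC, 34 bases before its start, and Ppara held them within its whole site. That shorter form was added after the windows had been read, overlaps the whole site, and was in 2.26% of all windows. A match is a run of letters and not a measured binding site. The windows of Esrra and Ppard are shown because these receptors moved in opposite directions, and those of Ppara and Tfam because they hold a full motif. Capitals mark the motif letters, and Ppard has none.

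Esrra (chr19:6921809-6922058, minus strand): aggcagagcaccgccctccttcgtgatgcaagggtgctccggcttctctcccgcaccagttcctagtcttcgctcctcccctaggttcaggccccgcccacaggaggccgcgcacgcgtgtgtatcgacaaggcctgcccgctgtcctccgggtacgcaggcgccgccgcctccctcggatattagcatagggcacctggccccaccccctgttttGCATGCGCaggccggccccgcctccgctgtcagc
Ppard (chr17:28232504-28232753, plus strand): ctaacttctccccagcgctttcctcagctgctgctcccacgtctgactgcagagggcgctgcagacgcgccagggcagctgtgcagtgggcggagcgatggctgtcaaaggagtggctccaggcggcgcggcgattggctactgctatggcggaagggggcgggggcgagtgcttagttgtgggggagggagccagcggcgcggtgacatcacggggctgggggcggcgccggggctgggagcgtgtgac
Ppara (chr15:85735526-85735775, plus strand): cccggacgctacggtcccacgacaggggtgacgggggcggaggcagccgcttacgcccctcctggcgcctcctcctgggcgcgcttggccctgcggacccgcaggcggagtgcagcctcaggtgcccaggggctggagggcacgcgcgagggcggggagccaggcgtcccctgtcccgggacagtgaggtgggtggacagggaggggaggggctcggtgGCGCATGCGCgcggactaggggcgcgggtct
Tfam (chr10:71238045-71238294, minus strand): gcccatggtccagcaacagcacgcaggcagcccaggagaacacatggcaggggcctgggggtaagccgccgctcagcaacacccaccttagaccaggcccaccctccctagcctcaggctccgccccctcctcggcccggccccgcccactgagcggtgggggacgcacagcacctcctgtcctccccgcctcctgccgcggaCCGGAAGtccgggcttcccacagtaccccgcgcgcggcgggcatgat

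Ppargc1a, the PGC-1alpha gene and the best known inducer of mitochondrial biogenesis, was level across diet and age. Its value was 655, 782, 719.6 and 809.6 in young lean libraries 1 to 4 and 765, 777, 906, 866 and 676 in young obese libraries 1 to 5. It was 819.6, 780.5, 735, 797 and 843 in aged lean libraries 1 to 5 and 822, 749.7, 647, 819 and 876 in aged obese libraries 1 to 5. The 4 groups overlapped, and the highest library was 1.40-fold above the lowest. The log2 change with diet was 0.10 in young mice (95% interval -0.09 to 0.30, adjusted p = 0.501) and -0.03 in aged mice (-0.21 to 0.16, adjusted p = 0.941). With age it was 0.10 on the lean diet (-0.09 to 0.30, adjusted p = 0.568) and -0.03 on the high-fat diet (-0.21 to 0.16, adjusted p = 0.879). The intervals of the 5 pairwise comparisons thus reach at most 1.23-fold in either direction. The table gives 1 value per gene, so isoforms from the alternative promoters of Ppargc1a were not separated.

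Ppargc1b, the PGC-1beta gene, was scattered. Its mean was 302 ± 99.1 (SD, n = 4) in young lean, 306 ± 61.4 (n = 5) in young obese, 283 ± 50.4 (n = 5) in aged lean and 340.4 ± 47.3 (n = 5) in aged obese muscle. The young lean group held both the lowest library of all (176 in young lean 4) and the highest (412 in young lean 1). No comparison was called, and the lowest adjusted p of the 5 pairwise comparisons was 0.572. Their intervals reach 1.60-fold, so a moderate change of Ppargc1b was not detectable here. The log2 ratio of Ppargc1a to Ppargc1b averaged 1.36 ± 0.634 in young lean, 1.40 ± 0.454 in young obese, 1.51 ± 0.247 in aged lean and 1.20 ± 0.191 in aged obese libraries (SD), a difference in values that is not corrected for transcript length.

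Esrra, which encodes ERRalpha, the receptor that PGC-1alpha uses on respiratory genes, rose with the high-fat diet in young mice. Its value was 1693, 1145, 1120.3 and 1085 in young lean libraries 1 to 4. In young obese libraries 1 to 5 it was 1963, 1757, 1413, 1895 and 1942. The groups overlapped through young lean 1 and young obese 3. The increase was 1.44-fold (log2 0.52, SE 0.12, limma adjusted p = 0.0127), and of all genes tested 5.7% were called higher in this comparison.

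In aged mice no difference of Esrra between diets was detected. It was 1249, 1644, 1590.2, 1642 and 1497 in aged lean libraries 1 to 5 and 1365, 1522, 1473, 1606 and 1626 in aged obese libraries 1 to 5. The groups overlapped throughout, with a log2 change of -0.00 (95% interval -0.24 to 0.24, adjusted p = 0.998). The difference between the diet effects, aged minus young, was -0.52 (SE 0.17, adjusted p = 0.0821) and was not called. Without young lean 1 it was -0.67 and called (adjusted p = 0.00559). With age on the lean diet Esrra was at 0.29 (adjusted p = 0.179), and without young lean 1 at 0.44 (adjusted p = 0.0122). Young lean 1 had the highest Esrra of its group, so leaving it out had to enlarge both differences. Over the runs without 1 library, 112 to 1723 of all genes were called for the interaction. For age on the lean diet 283 to 1270 were called.

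Esrrg encodes ERRgamma, a receptor of oxidative fibres and heart. It was 541, 574, 572, 562 and 988 in aged obese libraries 1 to 5, against 321, 519.7, 418, 529 and 491 in aged lean libraries 1 to 5. Every aged obese library lay above every aged lean library, which held for 1.86% of all genes tested in this direction. The log2 change was 0.49 (SE 0.21) and was not called (adjusted p = 0.376). The aged obese libraries also carried more slow fibre transcript, with 5 of 10 slow fibre markers called higher, against 0.135% of all genes. Summed values of these markers were 25178 to 72138 against 12394 to 25477, with none at 0. The slow fibre score, the mean log2 value of Myh7, Tnni1, Tnnc1, Tnnt1, Myl2 and Myl3, averaged 10.3 ± 0.555 (SD, n = 5) in aged lean muscle and 11.8 ± 0.622 (SD, n = 5) in aged obese muscle. With that score in the model the change of Esrrg in aged mice was -0.24 (adjusted p = 0.736). The score ran from 9.73 to 11.03 in aged lean and from 10.98 to 12.67 in aged obese libraries. With so little overlap, that fit cannot tell diet from slow fibre content in aged mice. The part of slow fibre transcripts in the Esrrg values was not tested.

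In young mice Esrrg was 611, 402, 679 and 373 in lean libraries 1 to 4 and 722, 574, 398, 780.3 and 672 in obese libraries 1 to 5, with overlap. The log2 change was 0.30 (SE 0.22, adjusted p = 0.402). The log2 ratio of Esrra to Esrrg averaged 1.31 ± 0.393 (SD, n = 4) in young lean and 1.54 ± 0.203 (SD, n = 5) in young obese libraries. It averaged 1.76 ± 0.171 in aged lean libraries and 1.27 ± 0.315 in aged obese libraries (SD, n = 5 each). Its mean was thus higher with the high-fat diet in young mice and lower in aged mice. No test was run on this ratio.

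**Figure D2:**
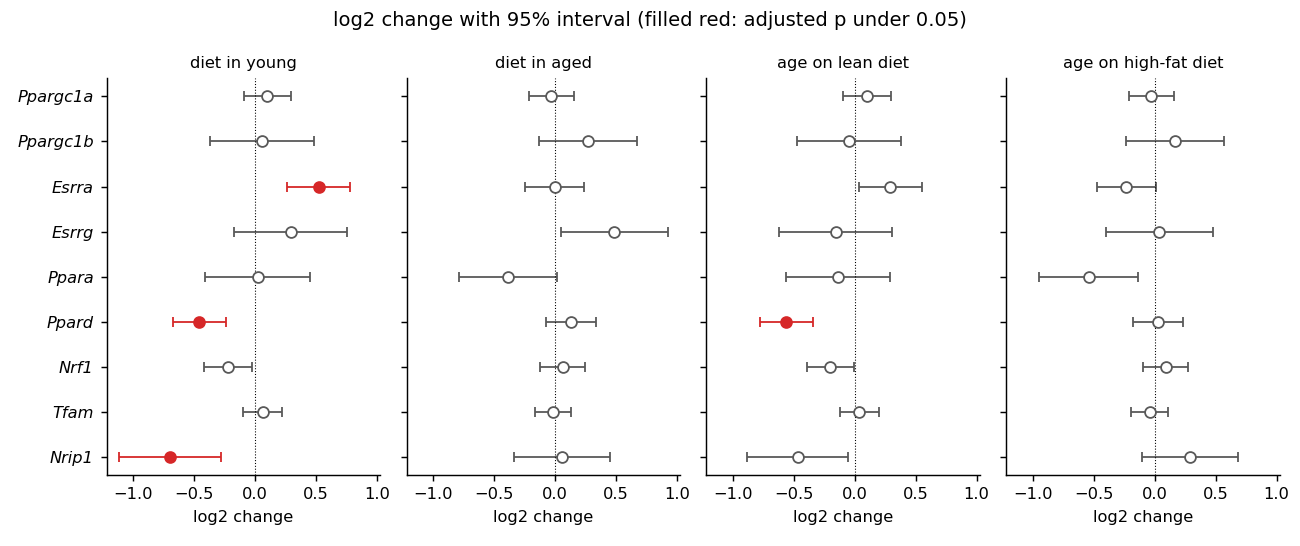
log2 change (horizontal axis) with its 95% interval for the 9 genes in 4 comparisons. Filled red points were called at an adjusted p under 0.05. They are Esrra, Ppard and Nrip1 for diet in young mice and Ppard for age on the lean diet, and the intervals of Ppargc1a and Tfam are the narrowest around 0.

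Ppard, the PPARdelta gene, whose receptor senses fatty acids and is the main PPAR of muscle fibres, was highest in young lean muscle. Its value was 949, 1226, 1357 and 1482 in young lean libraries 1 to 4. It was 798, 913, 859, 985 and 971 in young obese libraries 1 to 5, which overlapped the lean group only through young lean 1. It was 789, 811, 918, 872 and 809 in aged lean libraries 1 to 5, all below every young lean library. It was 985, 843, 1046, 894 and 849 in aged obese libraries 1 to 5, where 2 libraries lay above young lean 1.

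Ppard fell by 0.45 on the log2 scale with the high-fat diet in young mice (SE 0.11, adjusted p = 0.012), a 1.37-fold lower level. It fell by 0.56 with age on the lean diet (SE 0.11, adjusted p = 0.00604) and by 0.43 in aged obese against young lean muscle (SE 0.11, adjusted p = 0.0231). These comparisons share the young lean libraries. The share of all tested genes called lower was 5.33% for diet in young mice, 1.99% for age on the lean diet and 2.33% for aged obese against young lean. Groups without overlap in this direction were found for 3.3% of genes for age on the lean diet. Values of markers of other cells also moved in these comparisons, called or not. With age on the lean diet all 10 macrophage markers were positive (median 0.93), none called and 7 with an unadjusted p under 0.05, with summed values of 3949 to 14454 in aged lean and 1972 to 5578 in young lean libraries. All 10 progenitor markers were positive there too (median 0.35), with none called and 4 with such a p. Of all genes, 21% had such a p there. The 9 adipocyte markers tested were all positive there (median 0.43), with none called and 2 with such a p. Of 10 endothelial markers 7 were negative and 3 positive there (median -0.10). Only Flt1 was called (-0.57, adjusted p = 0.00276), which is 10% of the list. It was also the only endothelial marker called in aged obese against young lean muscle (-0.51, adjusted p = 0.0035), where 6 of the 10 were positive. In aged obese against young lean muscle 4 of 10 slow fibre markers were called higher (median 0.93), against 3.25% of all genes. Their summed values were 25178 to 72138 against 17146 to 32169. No marker of these lists was at 0 in all libraries of a group. The part of macrophage, progenitor, adipocyte and endothelial transcripts in the Ppard values was not tested. With the slow fibre score in the model, Ppard was at -0.59 with age on the lean diet (adjusted p = 0.00516) and at -0.33 in aged obese against young lean muscle (adjusted p = 0.237), where its call was lost. The score ran from 10.23 to 11.29 in young lean and from 10.98 to 12.67 in aged obese libraries. That fit thus separates it poorly from the difference between these groups. Without a score in the model, Ppard was at 0.03 with age on the high-fat diet (SE 0.10, limma adjusted p = 0.892). No fall was thus detected on that diet. The mean of the age effects on both diets was -0.27 (SE 0.07, adjusted p = 0.0274), with 4.31% of all genes called lower. That call was lost without young lean 3 (adjusted p = 0.0591), young lean 4, young obese 4 or aged obese 2, at changes of -0.22 to -0.25.

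The diet effect on Ppard differed between ages. It was 0.13 in aged mice (SE 0.10, adjusted p = 0.659), and the difference, aged minus young, was 0.59 (SE 0.14, adjusted p = 0.0384), with 1.29% of all genes called in that direction. This call was kept in 7 of 19 runs that left out 1 library, at differences between 0.50 and 0.72 and adjusted p up to 0.0752. The change of Ppard with diet in young mice and that with age on the lean diet were each called in all 19 such runs. The call for aged obese against young lean was kept in 15 of 19 and lost when young lean 3 or 4 or aged obese 2 or 5 was left out, with adjusted p up to 0.0766.

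Ppara encodes PPARalpha, a fatty acid sensor most abundant in liver and oxidative muscle. It was lowest in aged obese muscle, at 382, 431, 391, 405 and 559 in libraries 1 to 5. Young obese libraries 1 to 5 had 789, 448, 527, 814 and 632, which overlap that range. The log2 change with age on the high-fat diet was -0.54 (SE 0.19) and was not called (adjusted p = 0.0819), and 4.86% of all genes were called lower there. It was called without young lean 1 (adjusted p = 0.0498), young lean 2 (0.0379) or young obese 2 (0.0282). Over the runs without 1 library, 723 to 1891 of all genes were called there. Of the 9 genes none was called in this comparison, and Ppara alone had an unadjusted p under 0.05, against 26.4% of all genes.

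In lean mice Ppara was 888, 378, 714 and 603 in young libraries 1 to 4 and 540.4, 567, 453, 629 and 633 in aged libraries 1 to 5. The young lean group held both the lowest and the highest library of the study, and the change with age was -0.14 (adjusted p = 0.752). The log2 ratio of Ppara to Ppard averaged -1.01 ± 0.683 (SD, n = 4) in young lean and -0.58 ± 0.254 (SD, n = 5) in aged lean libraries. It averaged -0.53 ± 0.392 in young obese and -1.10 ± 0.331 in aged obese libraries (SD, n = 5 each). Its mean was higher with age on the lean diet and lower on the high-fat diet, with no test run. The ranges overlapped on both diets, at -1.70 to -0.10 in young lean and -1.02 to -0.36 in aged lean libraries. They were -1.03 to -0.02 in young obese and -1.42 to -0.60 in aged obese libraries.

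Nrf1, which encodes nuclear respiratory factor 1 and binds the promoters of respiratory and mitochondrial import genes, showed no called difference. It ran from 216 to 273 in young lean, from 186 to 235 in young obese, from 178 to 221 in aged lean and from 199.9 to 234 in aged obese libraries, and all groups overlapped. The change with diet in young mice was -0.22 (SE 0.09, adjusted p = 0.125) and that with age on the lean diet -0.20 (SE 0.09, adjusted p = 0.231). Neither was called, and both had an unadjusted p under 0.05, as had 28.6% and 21% of all genes.

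Tfam varied least. Its mean was 613 ± 44.9 (n = 4) in young lean, 641 ± 49.0 in young obese, 629 ± 48.3 in aged lean and 622 ± 41.0 in aged obese muscle (SD, n = 5 each), and its highest library was 1.23-fold above its lowest. All 5 pairwise log2 changes lay between -0.04 and 0.06, with intervals that reach at most 1.17-fold. The lowest of their adjusted p-values was 0.618.

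Nrip1 was lower in young obese than in young lean muscle, without overlap. It was 1094, 1206, 1143 and 1381 in young lean libraries 1 to 4 and 685, 881, 862, 664 and 644 in young obese libraries 1 to 5. It fell by 0.70 (SE 0.20, adjusted p = 0.0316), a 1.62-fold lower level, and 4.25% of all genes were lower without overlap in this comparison. The call was lost in 6 of 19 runs without 1 library, at changes of -0.63 to -0.72. These were the runs without young lean 2, 3 or 4 or young obese 1, 4 or 5 (adjusted p up to 0.0851).

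In aged mice Nrip1 spread widely on the lean diet, at 1305, 581, 1065, 910.2 and 670.0 in libraries 1 to 5, and was 949, 1036.5, 882, 1139.7 and 612 in aged obese libraries 1 to 5. The groups overlapped, with a log2 change of 0.06 (SE 0.19, adjusted p = 0.942). The difference between the diet effects was 0.76 (SE 0.27) and was not called (adjusted p = 0.114). The log2 ratio of Ppargc1a to Nrip1, coactivator to corepressor, was -0.70 ± 0.0667 in young lean (SD, n = 4) and 0.10 ± 0.203 in young obese muscle (SD, n = 5). It ran from -0.77 to -0.62 and from -0.18 to 0.38, without overlap. Nrip1 alone was already without overlap between these groups, as were 4.25% of all genes in its direction. The ratio is thus not a separate result. In aged muscle the ratio was -0.13 ± 0.495 (SD, n = 5) with the lean diet and -0.22 ± 0.425 (SD, n = 5) with the high-fat diet.

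Counted together, diet in young mice called 1 of 9 genes higher and 2 lower, where 11% of all genes were called. Diet in aged mice called none by limma, with 1 at an unadjusted p under 0.05 (Esrrg), where 0.292% of all genes were called and 11.4% had such a p. Age called 1 on the lean diet (4.08% of all genes) and none on the high-fat diet (9.02%). Aged obese against young lean called 1 (5.58%), as did the interaction (2.98%) and the mean age effect (8.88%). The mean diet effect called none, with 4 at an unadjusted p under 0.05, where 3.38% of all genes were called and 20.2% had such a p. The median log2 change of the 9 genes was 0.06 for diet in young mice against 0.01 for all genes, and 0.06 against 0.00 in aged mice. It was -0.14 with age on the lean diet and 0.03 on the high-fat diet, against -0.00 for all genes in both.

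**Figure D3:**
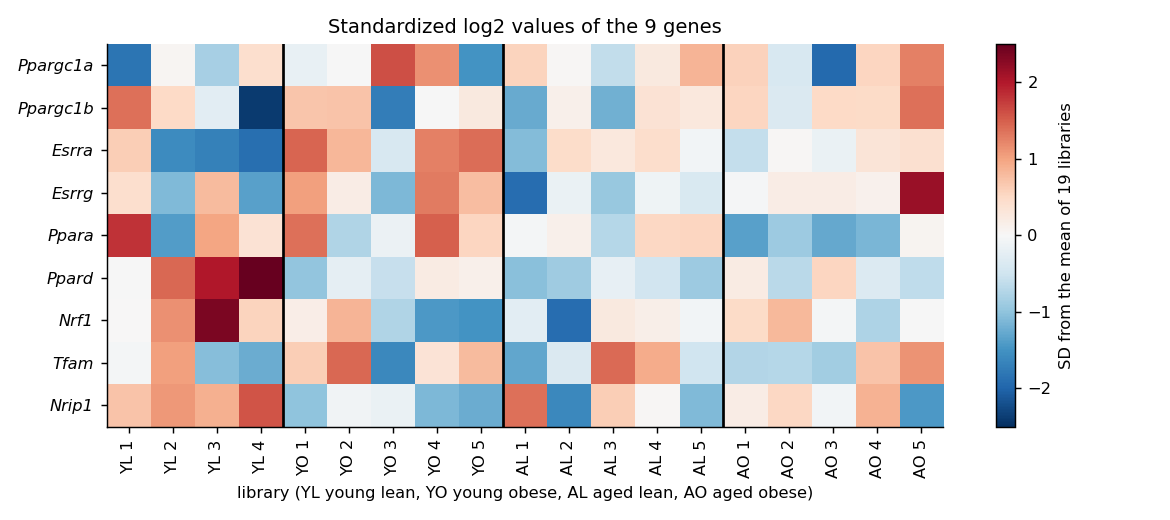
Standardized log2 value (colour, SD from the mean of the 19 libraries) of the 9 genes (rows) in each library (columns, grouped). Young lean 2 to 4 are high for Ppard and Nrip1 and low for Esrra, and young lean 1 is not low for Esrra.

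The 3 called genes moved with other transcripts between the same groups. The clock score averaged -2.58 ± 0.852 in young lean (n = 4), -1.46 ± 0.635 in young obese, -1.52 ± 0.587 in aged lean and -2.48 ± 0.466 in aged obese muscle (SD, n = 5 each). Of 13 clock genes 2 were called higher and 1 lower with diet in young mice, 23.1% against 11% of all genes. Among them were Per3 (-1.05, adjusted p = 0.00321) and Arntl (0.77, adjusted p = 0.0135). With the clock score in the model, the change with diet in young mice was 0.34 for Esrra (adjusted p = 0.191), -0.30 for Ppard (adjusted p = 0.183) and -0.42 for Nrip1 (adjusted p = 0.328). Ppard with age on the lean diet was then at -0.41 (adjusted p = 0.0677) and its difference between diet effects at 0.30 (adjusted p = 0.59). For aged obese against young lean muscle, Ppard kept its call, at -0.41 (adjusted p = 0.0139). Aged obese libraries had clock scores of -2.95 to -1.74 and Ppard values of 843 to 1046. Young lean libraries overlapped the young obese and aged lean ranges of the score only through young lean 1. That fit thus separates the clock score poorly from diet or age. The part of the clock transcripts in these differences was not tested, and the hour of collection is unknown.

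**Figure D4:**
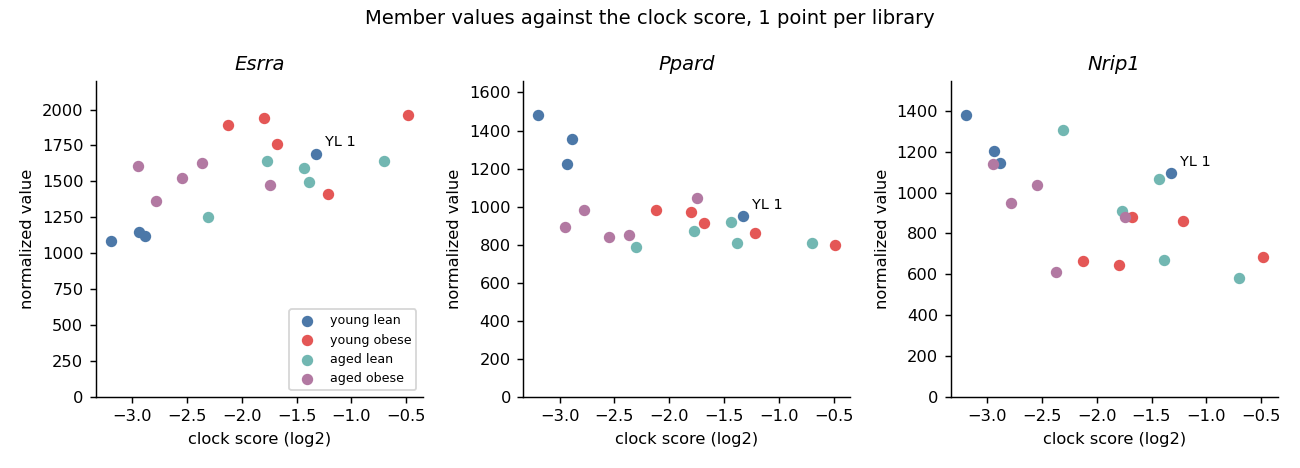
Normalized value (vertical axis, from 0) of Esrra, Ppard and Nrip1 against the clock score (horizontal axis, log2) with 1 point per library, coloured by group. Young lean 2 to 4 have the lowest Esrra, the highest Ppard and clock scores of -2.88 to -3.20, while young lean 1 lies among the other groups.

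Tendon transcripts also differed. The tendon score, a mean log2 value over Kera, Chad, Cilp2, Mkx, Scx and Tnmd, ran from 7.67 to 9.13 in young obese and from 5.99 to 7.17 in young lean libraries, and the summed values of 10 tendon markers from 13331 to 32636 and from 5698 to 9738. Of these markers 8 of 10 were called higher with diet in young mice, where 5.7% of all genes were called higher, and none was at 0. Of 10 fibro-adipogenic progenitor markers 4 were called higher, with sums of 40242 to 107695 against 29143 to 49999. With the score in the model the change with diet in young mice was 0.47 for Esrra (adjusted p = 0.423), -0.47 for Ppard (0.356) and -0.15 for Nrip1 (0.853). No gene of all tested was called in that fit for this comparison. Because the score did not overlap between young lean and young obese libraries, that fit cannot tell diet from tendon content. The part of tendon or progenitor transcripts in these differences was not tested.

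The genes around the regulators were described from 5 lists. Of 24 PPAR targets, 14 (58.3%) rose and none fell with diet in young mice, where 5.7% of all genes were called higher, with a median log2 change of 0.63 against 0.01 for all genes. Pdk4, which turns glucose oxidation down, was at 2.28, and Cpt1a, Acot2 and Acot1 of fatty acid handling were at 1.22, 1.56 and 1.95 (adjusted p = 0.000468 to 0.00365). These rises stood beside a fall of Ppard and a Ppara change of 0.02 in the same libraries. Of 10 adipocyte markers 9 were tested, and 8 of these were positive with diet in young mice (median 0.66). Only Cidea, a lipid droplet gene, was called (1.88, adjusted p = 0.012). That is 11.1% of the list, against 11% of all genes called and 5.7% called higher. Summed values of the list overlapped, at 1480.0 to 5338 in young obese and 1144 to 4298 in young lean libraries, with none at 0. In aged obese against young lean muscle 7 markers were positive and 2 negative (median 0.79). Cidea (2.30, adjusted p = 0.00393) and the leptin gene Lep (2.72, adjusted p = 0.0186) were called there. They make up 22.2% of the list, against 3.25% of all genes called higher. The part of adipocyte transcripts in the PPAR target values was not tested. In aged mice no target was called by limma, 12 had an unadjusted p under 0.05, and all 24 values were positive, with a median of 0.36. Acot1 had the lowest p there (1.45, adjusted p = 0.0695). The diet effect on Cpt1a and Pdk4 was smaller in aged mice, by 0.96 and 1.71 (adjusted p = 0.02 and 0.0252 for the interaction, where 1.69% of all genes were called in that direction). With age on the high-fat diet 3 targets (12.5%, against 4.86% of all genes) fell, namely Ucp3 (-1.26), Cpt1a (-0.62) and Pdk4 (-0.95). In aged obese against young lean muscle 7 rose (29.2%, against 3.25% of all genes), Acot2 (1.34) and Acot1 (1.63) among them. On the lean diet 1 fell with age (4.17%, against 1.99% of all genes), the lipid droplet protein gene Plin4 (-0.47, adjusted p = 0.041).

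Of 25 citrate cycle, cytochrome c and other ERR targets, 1 (4%) rose with diet in young mice, a share below the 5.7% of all genes. It was Vegfa, the vascular growth factor gene (0.50, SE 0.13, adjusted p = 0.0196). The list's median was 0.15, and 23 of 25 values were positive. No target was called in the other 7 comparisons by limma, where 0 to 7 had an unadjusted p under 0.05. Averaged over ages all 25 values were positive, with a median of 0.08 and a range of 0.02 to 0.42. The muscle creatine kinase gene of mitochondria, Ckmt2, was at -0.63 with age on the high-fat diet (adjusted p = 0.0602).

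**Figure D5:**
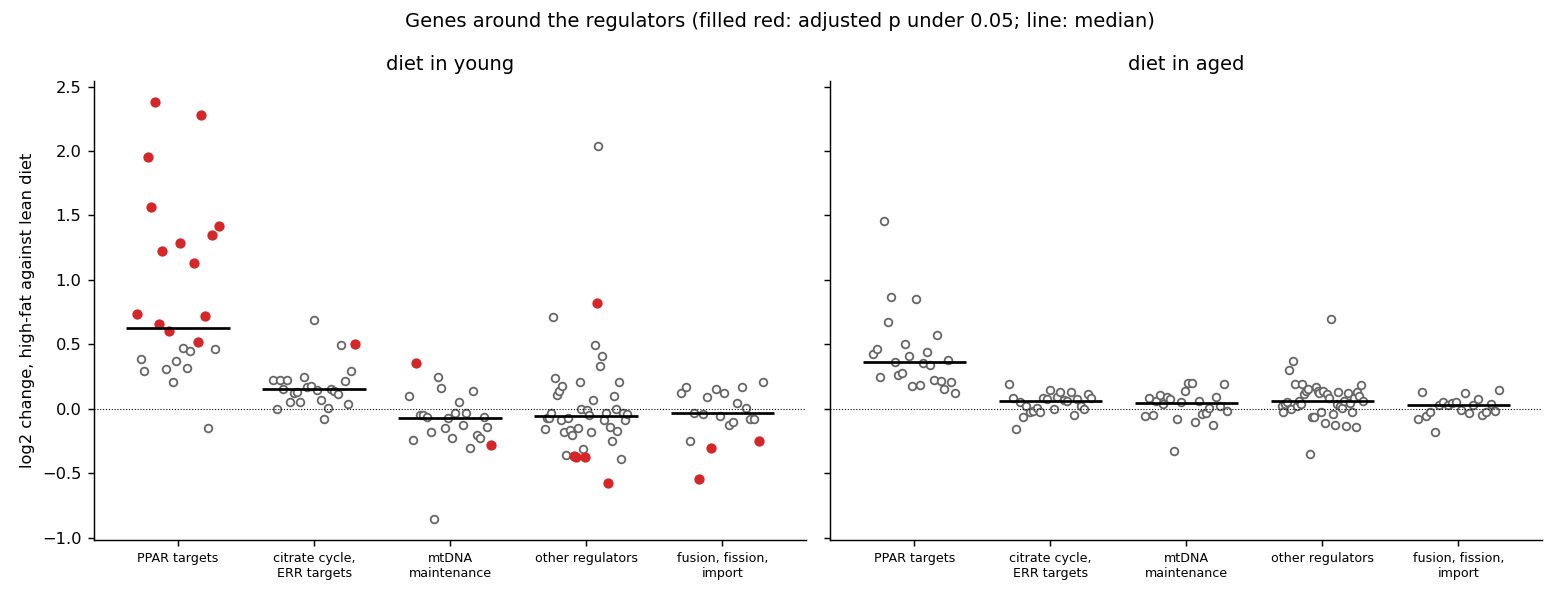
log2 change with the high-fat diet (vertical axis) of the genes in 5 lists (horizontal axis) in young (left) and aged mice (right). Points are genes, filled red when called at an adjusted p under 0.05, and lines are medians. PPAR targets have a median of 0.63 in young and 0.36 in aged mice, and the medians of the other lists lie between -0.07 and 0.15.

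Of 24 genes that maintain and express mitochondrial DNA, 2 (8.33%) were called with diet in young mice and 2 with age on the lean diet, against 11% and 4.08% of all genes, and 1 (4.17%) each with age on the high-fat diet, in aged obese against young lean muscle and with age over both diets, against 9.02%, 5.58% and 8.88%. Twnk, the replicative helicase, fell by 0.28 with diet in young mice (adjusted p = 0.0445), by 0.32 with age on the lean diet (0.0452) and by 0.33 in aged obese against young lean muscle (0.03). Polg, the mitochondrial polymerase, fell by 0.34 with age on the lean diet (adjusted p = 0.0407) and by 0.23 with age over both diets (0.0267). Endog, a mitochondrial nuclease, rose by 0.36 with diet in young mice (adjusted p = 0.0274) and fell by 0.31 with age on the high-fat diet (0.0446). Neither diet in aged mice nor the interaction nor the mean diet effect called a gene of this list by limma, and 2, 5 and 3 had an unadjusted p under 0.05. The table holds no mitochondrially encoded gene, so the transcripts that Tfam drives were not measured.

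Of 45 other regulators 44 were in the table. With diet in young mice 1 rose and 4 fell, and these 11.4% are close to the 11% of all genes called. Prkaa2, the AMP kinase subunit of muscle that acts upstream of PGC-1alpha, fell by 0.58 (SE 0.08, adjusted p = 0.00103). Med1, the Mediator subunit that nuclear receptors bind, fell by 0.37, and Lpin1, a phosphatase that also coactivates with PGC-1alpha and PPARalpha, fell by 0.37. Nr4a1, an orphan receptor induced by contraction, rose by 0.82. With age on the lean diet 6 (13.6%) fell and none rose, against 1.99% of all genes called lower, with Prkaa2 at -0.41, the acetyltransferase gene Kat2a at -0.33, Lpin1 at -0.46 and Rxra, the partner receptor of the PPARs, at -0.42 (adjusted p = 0.00843 to 0.0138). No regulator was called with diet in aged mice by limma, where 5 had an unadjusted p under 0.05 and Lpin1 was at -0.35 (adjusted p = 0.105).

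With age on the high-fat diet 9.09% were called, against 9.02% of all genes. Kat2b rose (0.37) and 3 regulators fell, Nr4a1 by 1.14, Nr4a3 by 2.27 and Lpin1 by 0.44. In aged obese against young lean muscle 1 rose and 4 fell (11.4%, against 5.58% of all genes). Lpin1 had the lowest p, at -0.81 (SE 0.09, adjusted p = 6.1e-05), with Med1 at -0.37, Prkaa2 at -0.34 and the myocyte factor Mef2c at 0.42. The diet effects on Prkaa2 and Nr4a1 differed between ages (0.64 and -0.86, adjusted p = 0.011 and 0.0432 for the interaction), which called 4.55% of the list and 2.98% of all genes. Averaged over ages, diet lowered Lpin1 (-0.36), Med1 (-0.22) and Prkaa2 (-0.26), 6.82% of the list against 3.38% of all genes called. None of these genes was called with diet in aged mice. For Prkaa2 the mean joins diet effects that differed between ages. Averaged over diets, age called 3 higher and 7 lower (22.7%, against 8.88% of all genes), Lpin1 (-0.45), Nr4a1 (-0.71), Prkag3 (0.51) and Mef2c (0.23) with the lowest p. For Nr4a1, by the same interaction, the mean joins age effects that differed between diets.

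Likeness was measured as the root mean square difference of standardized log2 values over the 19 libraries, among 10515 genes with a mean of at least 50 (the median gene was at 1.39 to 1.40 SD). Esrra was most like Coq7 of ubiquinone synthesis (0.361 SD), the mitochondrial ribosomal gene Mrpl28 (0.381), Ptgr2 (0.389), Grb14 (0.414) and Plin5, a lipid droplet coat gene (0.417). Esrrg was most like the mitochondrial enzymes Idh2 (0.448) and Nnt (0.491), Prkg1 (0.472), the lactate dehydrogenase Ldhb (0.518) and Hadhb of fatty acid oxidation (0.521). Ppara was most like Slco3a1 (0.489), Lrrc52 (0.517), Wtip (0.568), Zdhhc23 (0.642) and Ckmt2 (0.645). The nearest genes to Ppargc1a were farther off, namely Rbpms2 (0.772), Arhgef28 (0.781), Ttc12 (0.784), Adh1 (0.816) and Wtap (0.823). Among the other members, Esrrg was nearest to Esrra at 0.884 SD, followed by Tfam (0.916) and Ppargc1b (0.965), while Nrip1 was farthest at 1.80 and Ppard next at 1.76.

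On a per-length scale (mean normalized value per kilobase of exon, with GENCODE M21 exons), Esrra was highest at 686. Ppard followed at 295, Ppara at 160.4, Tfam at 143, Ppargc1a at 121, Nrip1 at 116, Esrrg at 99.4, Ppargc1b at 82.5 and Nrf1 at 40.0. The authors' annotation is unknown, so these levels are approximate. By mean normalized value, young lean muscle was highest of the 4 groups for Ppara, Ppard, Nrf1 and Nrip1 and lowest for Ppargc1a, Esrra and Tfam. For Ppara the young lean and young obese means were close, at 645 and 642, and its log2 change with diet was 0.02. Apart from Ppard, Esrra and Nrip1, no pairwise comparison of groups passed the test for any of these genes.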

How the data were processed

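mRNA of 19 mouse muscle libraries was sequenced, per the labels' protocols, as single-end reads (paired-end in the series' design text), after RNA of low integrity had been left out. The authors deposited 1 signal value per gene and library, normalized between libraries. The submitters' processing notes list STAR 2.78a, DESeq2, Partek and mm39 without saying what each was used for. The median ratio of every library to the geometric mean library was 1.00, as scaling by 1 factor per library leaves it. Steps between low values put 1 read at 0.903 to 1.09 units, and among values of at most 200 reads 85.1 to 86.3% lay within 0.02 of a whole read. That is under the 95% set as the minimum, so no count test was run. Depth of 15.1 to 17.9 M reads is estimated from these steps. No column was left unmapped.

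limma 3.58.1 (R 4.3.3, trended moderation, 15 residual and 4.37 prior degrees of freedom) was fitted to log2(value + 1), without the 1340 genes whose mean was below 10. This scale understates the change of low genes. The 4 group means gave 8 contrasts, including both averaged effects, each adjusted over 13367 genes. Intervals are 95%. The code was checked on simulated data. The members, lists, covariate scores and doubted libraries were chosen with earlier results of these data known. From each list the text names up to 4 called genes of lowest p per comparison. Alternatives covered the pseudocount, filter, scaling, weights, moderation, groups fitted, covariates and left-out libraries. Python 3.11.15 with numpy 2.4.6, pandas 2.3.3 and matplotlib 3.10.9 made summaries and figures. Promoters are RefSeq windows of GRCm38.p6, and exon lengths come from GENCODE M21. Coordinates on mm39 are not given.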

Additional observations from a re-analysis of the deposited data

Results flagged for a closer look

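Among 36 sets of libraries (9 genes in 4 groups), 4 held a library set far from the others of its group by Dixon's test at 95%, a test that chance passes in about 1 of 20 sets. Esrra was 1693 in young lean 1 and at most 1145 in the other young lean libraries. Esrrg was 988 in aged obese 5 and at most 574 in the rest of that group. Ppara was 559 in aged obese 5 and at most 431 in the rest. Nrf1 was 178 in aged lean 2 and at least 210.3 in the rest.

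The diet effect on Ppard differed between ages by 0.59 on the log2 scale (limma adjusted p = 0.0384 for the interaction), lower with the high-fat diet in young mice and not called in aged mice. Most runs that left out a single library lost this interaction call. It was also lost with the clock score or the tendon score in the model.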

How the results depend on the processing

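Of the 7 called differences of the 9 genes, none changed sign in 133 values from runs without 1 library, where 107 kept the call, nor in 96 values from the other settings, where 76 did. Of the 65 uncalled differences, 53 of 1235 values without 1 library and 51 of 885 in other settings had the opposite sign, and 11 and 29 gained a call. Without 1 library, the number of the 9 genes called was 2 to 3 for diet in young mice (3 with all libraries), 0 for diet in aged mice (0), 1 to 2 for age on the lean diet (1), 0 to 1 for age on the high-fat diet (0), and 0 to 2 for aged obese against young lean (1), the interaction (1), the mean diet effect (0) and the mean age effect (1).

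With only the 2 groups of a comparison fitted, diet in young mice called 1 (Nrip1), and age on the lean diet and aged obese against young lean called 0. The interaction and both averaged effects need all groups and were not run so. With the clock score, diet in young mice, age on the lean diet and the interaction called 0. With the tendon score, diet in young mice, the interaction and the mean age effect called 0. With the slow fibre score the counts were 2 for age on the lean diet, 3 for age on the high-fat diet (Esrra, Nrip1 and Ppara), 0 for aged obese against young lean, 3 for the interaction and 2 for the mean age effect. With library weights they were 3, 2, 3, 4, 1 and 2 for age on the lean diet, age on the high-fat diet, aged obese against young lean, the interaction, the mean diet effect and the mean age effect. Without young lean 1 and young obese 2 together they were 2, 1, 2, 4 and 2 for the first 5 of these. Without young lean 3 and young obese 3 together, diet in young mice called 1 (Esrra), the mean diet effect 1 (Esrrg), and aged obese against young lean, the interaction and the mean age effect 0. Over the other settings, calls among all genes ran from 12 to 2840 for age on the high-fat diet and from 0 to 2694 for the interaction. The counts above are given without the share of all genes called in the same fit. They therefore cannot show a shift particular to these regulators. The cause of the shifts in these counts was not tested.

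Calls among all genes moved more. Without 1 library they ran from 668 to 2695 for diet in young mice (1475 with all), from 6 to 70 for diet in aged mice (39), from 283 to 1270 for age on the lean diet (545), from 723 to 1891 for age on the high-fat diet (1206), from 436 to 1078 for aged obese against young lean (746), from 112 to 1723 for the interaction (398), from 223 to 1100 for the mean diet effect (452) and from 852 to 1362 for the mean age effect (1187). Over the other settings they ran, in the same order, from 0 to 3421, 0 to 169, 130 to 1565, 12 to 2840, 148 to 1711, 0 to 2694, 6 to 1537 and 171 to 1914. No paired analysis was possible because replicate numbers were given in accession order and pair no libraries. Depth is estimated, and the lowest value of a member was 176 units.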

Other observations

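Of 20 genes of mitochondrial fusion, fission and protein import, 3 (15%) fell with diet in young mice, against 5.33% of all genes. They were Mief1, a fission adaptor (-0.30, limma adjusted p = 0.0251), the import receptor Tomm70a (-0.25, adjusted p = 0.026) and the chaperonin partner Hspe1 (-0.54, adjusted p = 0.0461). None was called with diet in aged mice, and none had an unadjusted p under 0.05 there, with Fis1 at 0.13 (adjusted p = 0.444). Hspe1 was also lower in aged obese than in young lean muscle (-0.62, adjusted p = 0.0377), and Phb, a prohibitin, fell with age over both diets (-0.26, adjusted p = 0.0424), which is 1 gene (5%) in each comparison against 2.33% and 4.31% of all genes called lower. The median of this list was -0.04 for diet in young mice and 0.03 in aged mice.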
